A study of Mus musculus with 18 samples.

Results

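Replication-dependent histone genes encode the bulk histones that package newly made DNA. They were taken from the RNA table as the rows with a single symbol starting with Hist1h, Hist2h, Hist3h or Hist4h and a mean of at least 1 RPKM (reads per kilobase of transcript, scaled to library size) over 6 libraries. This gave 33 genes of 14864 loci, namely 2 for H1, 8 for H2A, 9 for H2B, 9 for H3 and 5 for H4, the class being read from the symbol. The libraries came from mouse embryonic stem cells that were either wild type or Tet2 KO, with 1 library for each genotype after 0, 3 and 6 h of actinomycin D, an inhibitor of transcription given at 5 µg/ml. All cells were grown with LIF on a feeder layer of mouse embryonic fibroblasts. Tet2 encodes a dioxygenase that oxidises 5-methylcytosine (m5C). The labels name neither the deleted part of Tet2 nor the number of clones, and nothing says that libraries came from separate cultures. The p-values therefore measure only the spread between these libraries, which may be technical. With 1 library per genotype and time, that spread also holds any change of the genotype difference over time. In the slope fit it also holds any departure from a straight line.

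Histone proteins come in 5 classes. H2A pairs with H2B and H3 pairs with H4 to form the core around which DNA is wound, while H1 binds the linker between cores. The mRNAs of replication-dependent genes are made in S phase, have no poly(A) tail and end instead in a conserved stem-loop, which is bound by the protein encoded by Slbp and governs processing, translation and rapid decay. RNA for these libraries was selected on poly(A), per the labels' protocols, so the values below count the histone RNA that passed that step. Its yield in each library was not tested.

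Tet2 RNA was present in every library. It stood at 23.7, 17.9 and 12.5 RPKM in the wild type libraries, and those with the Tet2 KO label had 23, 11.2 and 10.1, so directions between genotypes rest on the labels. Of 37 rows that held a histone symbol, 3 carried several symbols and were not members, and 1, Hist2h2be, had a mean of 0.316 RPKM. All 14864 loci had a value above 0 in each of the 6 libraries, while RefSeq holds 70 loci with a histone symbol. Histone genes without reads in some library may thus be absent, so class sums and shares cover the members only. The member with the lowest mean was Hist3h2ba, at 3.38 RPKM. The row shared by Hist2h2bb and Gm42743 was higher than any member, with 1050 RPKM in wild type and 845 in Tet2 KO at 0 h. All 33 members were above 1 RPKM in both 0 h libraries, but 11 were under 1 RPKM in at least 1 library at 3 h and 19 at 6 h, and 13 were above 1 RPKM in every library. The genes lie in clusters, with 28 members on mouse chromosome 13 (11 in a proximal and 17 in a distal stretch), 4 on chromosome 3 and 1 on chromosome 11, in the RefSeq table of GRCm38.p6. Many copies are near-identical in sequence, and how the authors placed reads that match several of them is not given in the sources used here, so values of single copies are uncertain.

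Promoter sequences, from 250 bases before to 50 after the annotated start, were found for 29 members in RefSeq (GRCm38.p6). The windows below are shown because their genes mark the ends of the genotype difference at 0 h: Hist1h1a (chr13:23763418-23763717, plus strand) and Hist1h2bb (chr13:23746484-23746783, plus strand) were among the members closest to wild type in Tet2 KO, Hist1h2bk (chr13:22035571-22035870, plus strand) was the H2B gene farthest below it, Hist1h4k (chr13:21750504-21750803, minus strand) was the farthest of all, and the window of Hist1h2ai (chr13:21716162-21716461, plus strand) also holds most of the promoter of its neighbour Hist1h2bl. Capitals mark, on either strand, the CCAAT box, the TATA box searched as TATAAA, the octamer searched as ATTTGCAT, the element of H1 promoters searched as AAACACA, and the core of an H4 element searched as GGTCC.
Hist1h1a: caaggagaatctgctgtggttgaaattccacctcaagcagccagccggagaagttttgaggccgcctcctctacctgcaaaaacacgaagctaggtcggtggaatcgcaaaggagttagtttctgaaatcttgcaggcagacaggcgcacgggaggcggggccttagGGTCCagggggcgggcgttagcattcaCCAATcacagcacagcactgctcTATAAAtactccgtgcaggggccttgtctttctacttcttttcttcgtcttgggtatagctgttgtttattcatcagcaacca
Hist1h2bb: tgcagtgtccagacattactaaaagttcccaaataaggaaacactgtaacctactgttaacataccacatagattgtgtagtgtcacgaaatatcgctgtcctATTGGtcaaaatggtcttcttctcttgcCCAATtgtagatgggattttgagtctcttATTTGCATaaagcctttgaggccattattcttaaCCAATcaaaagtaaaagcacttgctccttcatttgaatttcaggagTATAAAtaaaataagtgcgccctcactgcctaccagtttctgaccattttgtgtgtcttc
Hist1h2bk: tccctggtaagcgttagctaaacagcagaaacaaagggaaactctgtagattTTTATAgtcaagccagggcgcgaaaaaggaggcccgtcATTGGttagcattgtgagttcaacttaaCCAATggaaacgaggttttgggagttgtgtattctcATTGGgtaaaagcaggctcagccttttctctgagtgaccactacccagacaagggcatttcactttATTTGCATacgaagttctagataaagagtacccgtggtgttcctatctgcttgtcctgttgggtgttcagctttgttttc
Hist1h4k: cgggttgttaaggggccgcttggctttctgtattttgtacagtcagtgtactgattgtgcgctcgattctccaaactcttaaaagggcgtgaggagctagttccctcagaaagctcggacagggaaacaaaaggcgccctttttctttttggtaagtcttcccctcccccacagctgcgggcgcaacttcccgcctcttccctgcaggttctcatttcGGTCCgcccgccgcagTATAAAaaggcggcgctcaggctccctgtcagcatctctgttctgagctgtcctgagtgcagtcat
Hist1h2ai: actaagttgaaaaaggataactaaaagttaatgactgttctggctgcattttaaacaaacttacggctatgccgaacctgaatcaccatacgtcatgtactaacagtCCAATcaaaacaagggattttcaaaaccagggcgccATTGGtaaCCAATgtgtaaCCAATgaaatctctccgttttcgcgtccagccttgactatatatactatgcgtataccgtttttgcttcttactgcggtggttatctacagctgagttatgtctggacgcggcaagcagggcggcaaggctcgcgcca

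CCAAT, the core of the box bound by the factor NF-Y, was present in 26 of 29 member promoters, against 37.9% of 27025 RefSeq promoters of the same length. It stood in all 25 windows of the H1, H2A, H2B and H3 genes and in 1 of 4 of the H4 genes. TATAAA was present in 18 of 29, against 14.2% of all promoters. The octamer, first described as a promoter element of H2B genes and recognised by POU proteins, was present in 4 of 8 H2B and 3 of 8 H2A windows and in none of the 13 of the other classes, against 1.75% of all promoters. Windows of neighbouring H2A and H2B genes overlap, so 1 stretch of DNA can be counted for both. The H1 element was present in 3 of 29 windows, 1 of them of an H1 gene (7.14% of all promoters). The H4 core was present in 13 of 29, 3 of them among the 4 H4 windows (45.4% of all promoters). Of the H2B genes, those with the octamer ranged from 35.3% to 109% of wild type in Tet2 KO at 0 h, and those without it from 39.0% to 79.1%. The ranges overlap.

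Untreated cells held the highest histone RNA levels, and the classes differed widely. In wild type at 0 h the summed RPKM was 1485 for the 9 H2B genes, 807 for the 9 H3 genes, 766 for the 5 H4 genes, 685 for the 2 H1 genes and 301 for the 8 H2A genes. RPKM are per length, but levels of genes and classes can be set side by side only within limits. Copies share sequence, and the yield of poly(A) selection for each gene was not tested. The row shared by Hist2h2bb and Gm42743, with 1050 RPKM in wild type at 0 h, is not in the H2B sum. Hist1h1a, a linker histone gene, was the highest member in wild type with 496 RPKM, followed by the H2B genes Hist1h2bq and Hist1h2bl with 355 and 321 RPKM. With 1 library per group these orders have no replicate check.

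Neighbouring H2A and H2B genes had very unequal RPKM. How reads were placed among copies is unknown, and the yield of poly(A) selection per gene was not tested. In 3 pairs of members the genes are adjacent and separated by 167 to 228 bases. Hist1h2bl stood at 321 RPKM and its H2A neighbour Hist1h2ai at 20.4 in wild type at 0 h, a ratio of 15.7. For Hist1h2bq over Hist1h2ao the ratio was 10.5, and for Hist1h2bg over Hist1h2ae it was 11.6. In Tet2 KO at 0 h the same ratios were 43.7, 15.4 and 19.5, so the H2B gene was the higher of each pair in both genotypes.

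**Figure D1:**
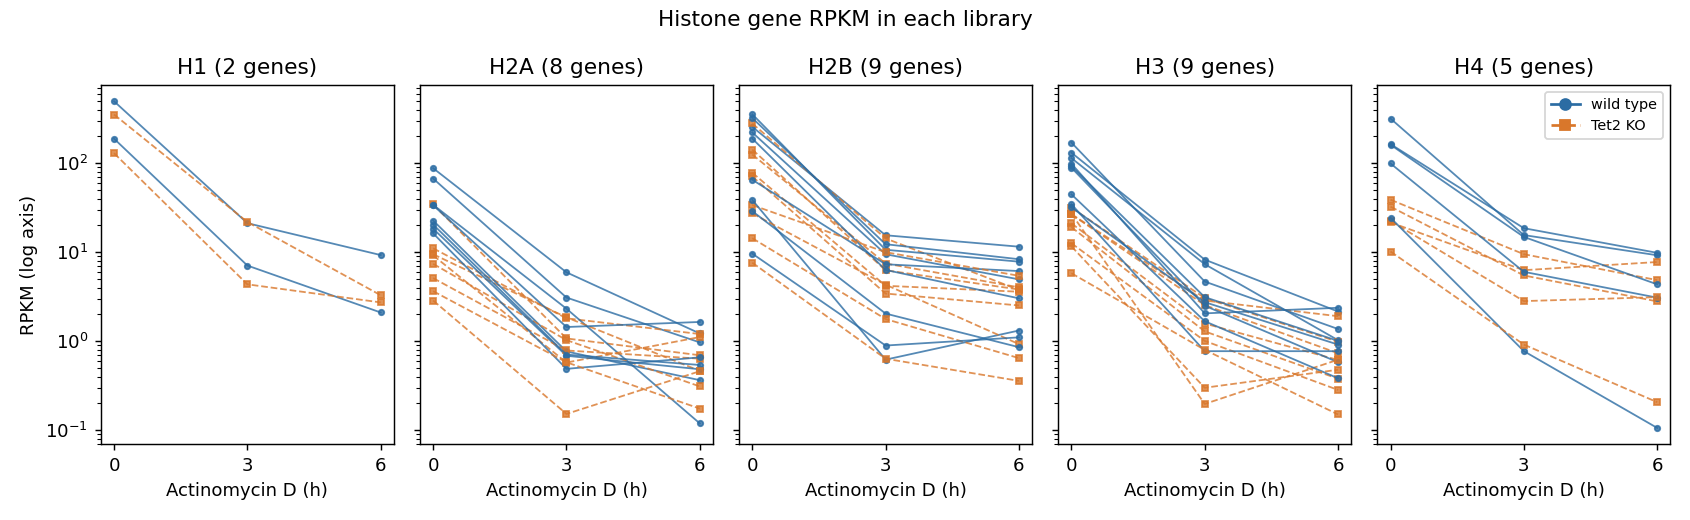
RPKM (log axis) of the 33 histone genes against hours of actinomycin D, 1 panel per class, 1 line per gene and genotype, 1 library per point. At 0 h the wild type H4 and H3 lines start above most Tet2 KO lines, and the H1 lines of Tet2 KO start at 68.7% and 71.0% of wild type.

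The first comparison asked how histone RNA differed between the genotypes. In untreated cells 32 of 33 members were below wild type in the library labelled Tet2 KO (49.1% of all 11855 tested loci were), and 27 were at least 2-fold lower (8.93% of all loci). In bulk RNA fewer cells in S phase and less histone RNA per cell cannot be told apart. The extent differed by class. All 5 H4 and all 9 H3 genes were at least 2-fold lower, as were all 8 H2A genes, 5 of 9 H2B genes and neither H1 gene. The Tet2 KO level had a median of 20.2% of wild type for H4 (12.3% to 41.8%), 21.4% for H3 (15.6% to 36.5%), 27.6% for H2A (14.0% to 39.1%), 49.6% for H2B (35.3% to 109%) and 69.8% for H1 (68.7% to 71.0%). The median over all tested loci was 101%. The highest H4 and H3 values lay below both H1 values, while the H2B range overlapped that of every other class. These are single libraries, so the difference between classes was not tested.

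Summed over genes, Tet2 KO at 0 h had 16.4% of the wild type RPKM for H4, 22.6% for H3, 27.7% for H2A, 52.4% for H2B and 70.4% for H1. The make-up of the members' summed RPKM therefore differed between these libraries. The row shared by Hist2h2bb and Gm42743, with 1050 RPKM in wild type and 845 in Tet2 KO at 0 h, is not in these sums. With it in the H2B class these shares would be different. Of the summed histone RPKM, H1 genes made up 16.9% in the wild type library but 29.2% in the Tet2 KO library, and H2B genes 36.7% but 47.2%. H4 genes made up 18.9% but 7.60%, and H3 genes 20.0% but 11%.

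Values per gene are given below in the order 0, 3 and 6 h. Among the H4 genes, the wild type libraries had 317, 15.6 and 9.24 RPKM of Hist1h4k, and the Tet2 KO libraries had 38.9, 9.50 and 4.86. Hist1h4a had 164, 18.6 and 9.84 in wild type, whereas the Tet2 KO values were 21.6, 6.28 and 7.76. Wild type was the higher genotype at every time for both, by 8.16-fold for Hist1h4k and 7.58-fold for Hist1h4a at 0 h but by 1.90-fold and 1.27-fold at 6 h. Hist1h4b had 161, 14.8 and 4.36 RPKM in wild type, whereas the Tet2 KO values were 32.5, 5.48 and 2.80. Hist2h4, the H4 gene on chromosome 3, had 24.4, 0.774 and 0.106 RPKM in wild type, whereas the Tet2 KO values were 10.2, 0.917 and 0.207. For this gene wild type was higher at 0 h and lower at 3 and 6 h.

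As a percentage of wild type at 0 h, the Tet2 KO values of the H3 genes lay between 15.6% and 36.5%. Hist1h3i, the highest of them in wild type, had 170.5, 4.68 and 1.37 RPKM in wild type, whereas the Tet2 KO values were 26.6, 2.54 and 0.733. Hist1h3f had 44.7, 1.68 and 0.384 RPKM in wild type, whereas the Tet2 KO values were 12.6, 1.01 and 0.284, again with wild type higher at every time. Hist2h3c2, on chromosome 3, had 34.6, 0.773 and 0.773 RPKM in wild type, whereas the Tet2 KO values were 5.80, 0.800 and 0.150. Its 3 h values differed little, and both were under 1 RPKM. Of the 9 H3 genes, 8 were below wild type at 3 h and 8 at 6 h.

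The H2A genes had the lowest levels of the 5 classes by median RPKM at 0 h in both genotypes. Hist1h2ab, the highest of them, had 87.9, 5.94 and 1.22 RPKM in wild type, whereas the Tet2 KO values were 34.4, 1.07 and 0.695. Hist1h2ai had 20.4, 0.708 and 0.541 in wild type, whereas the Tet2 KO values were 2.86, 0.152 and 0.460, the lowest share of wild type in the class at 0 h. Both stood lower in Tet2 KO at every time. Hist1h2ag had 22.7, 0.767 and 0.365 RPKM in wild type, whereas the Tet2 KO values were 7.40, 1.03 and 0.311, with the order turned at 3 h. Of the 8 genes, 5 were below wild type at 3 h and 5 at 6 h.

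The H2B genes were spread widely. Hist1h2bl had 321, 12.3 and 8.34 RPKM in wild type, whereas the Tet2 KO values were 125, 7.47 and 4.03, and Hist1h2bq, Hist1h2bk and Hist1h2bg were also between 35.3% and 40.1% of wild type at 0 h. Hist1h2bb, by contrast, had 256, 15.5 and 11.5 RPKM in wild type, whereas the Tet2 KO values were 279, 14.3 and 3.77. It was the 1 member that was not lower in Tet2 KO at 0 h, and it was the highest Tet2 KO value after Hist1h1a. Hist1h2ba, which encodes a testis H2B variant, had 38.7, 0.621 and 1.32 RPKM in wild type, whereas the Tet2 KO values were 27.3, 4.32 and 0.928, so its 3 h value was 6.96 times as high in Tet2 KO while wild type was higher at 0 and 6 h. Hist3h2ba, from the cluster on chromosome 11, had 9.64, 0.895 and 1.11 RPKM in wild type, whereas the Tet2 KO values were 7.62, 0.636 and 0.359, lower in Tet2 KO at every time.

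The linker histone genes had Tet2 KO values between 68.7% and 71.0% of wild type at 0 h, and 35.4% and 129.8% at 6 h. Hist1h1a had 496, 21.2 and 9.29 RPKM in wild type, whereas the Tet2 KO values were 352, 21.9 and 3.29. Hist1h1b had 189, 7.08 and 2.10 RPKM in wild type, whereas the Tet2 KO values were 129.5, 4.36 and 2.73. The first was higher in wild type at 0 and 6 h with near-equal values at 3 h, and the other was higher in wild type at 0 and 3 h and lower at 6 h.

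**Figure D2:**
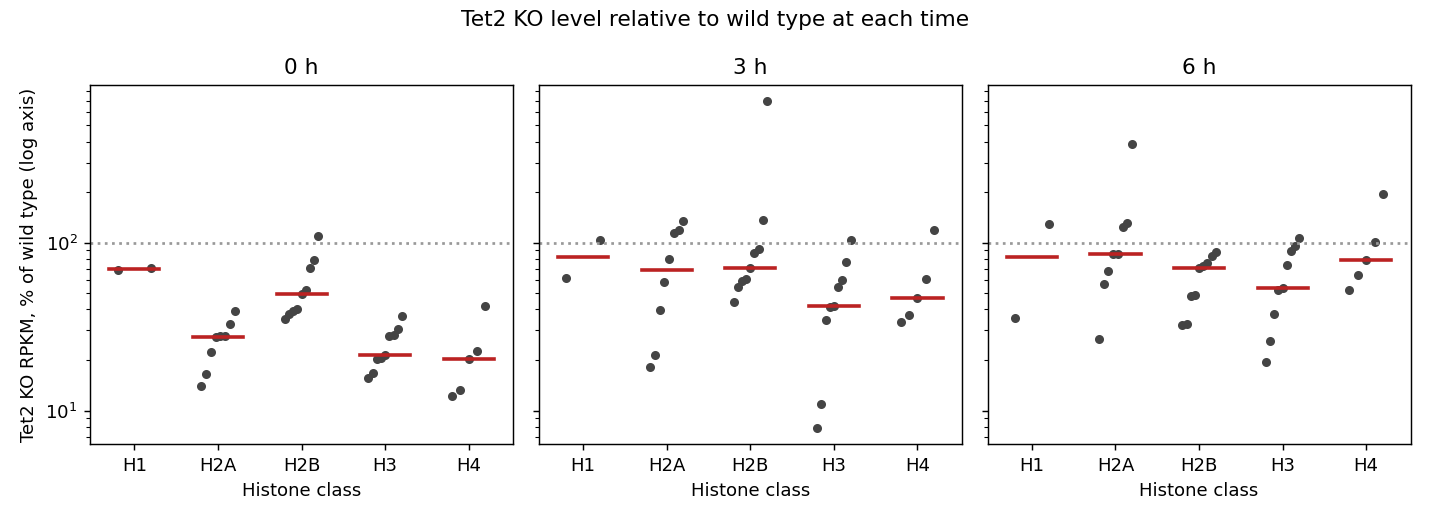
RPKM in Tet2 KO as a percentage of wild type (log axis) for each histone gene at 0, 3 and 6 h, 1 library per genotype and time. Points are genes, red lines are class medians and the dotted line is equality. At 0 h the H3 and H4 medians are 21.4% and 20.2%, and at 6 h they are 53.4% and 78.8%.

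The median Tet2 KO level over members was 28.2% of wild type at 0 h, 60.1% at 3 h and 72.6% at 6 h, where the medians over all tested loci were 101%, 98.1% and 112.7%. The class sums did not move alike in these single libraries. By summed RPKM, Tet2 KO had 70.4% of wild type for H1 at 0 h and 52.8% at 6 h, and for H2B 52.4% and 55.6%. For H4 the sums were 16.4% and 70.4%, for H3 22.6% and 58.1%, and for H2A 27.7% and 84.3%. Single genes varied at 6 h. Hist1h1a had 35.4% and Hist1h1b 129.8%. The H2A genes ranged from 26.5% to 389%, at median levels of 0.60 RPKM in wild type and 0.55 in Tet2 KO. A difference between classes over time was not tested. At 3 h 25 of 33 members were below wild type (52.2% of all loci) and 12 were at least 2-fold lower (7.74%), and at 6 h 26 were below it (37.2%) and 9 were at least 2-fold lower (7.19%). Over all 3 times, with time as a block, the limma difference on log2(RPKM + 1) was below 0 for 32 of 33 members, against 45.3% of all loci, with a median of -0.96 against 0.04. The class medians were -1.35 for H4, -1.09 for H3, -0.84 for H2A, -0.46 for H2B and -0.43 for H1. No member passed at an adjusted p under 0.05, where 0.0759% of all loci did (0.0675% lower and 0.00844% higher), and 17 had an unadjusted p under 0.05, as 10.8% of all loci did. The adjusted p of members ranged from 0.252 to 0.814. A difference on this scale understates the fold of low genes.

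For the members named above, Hist1h4a differed by -1.53 (SE 0.46, adjusted p = 0.368), Hist1h4k by -1.49 (SE 0.46, adjusted p = 0.380) and Hist1h4b by -1.35 (SE 0.34, adjusted p = 0.321). Hist1h3i differed by -1.26 (SE 0.44, adjusted p = 0.414), and Hist1h2ab by -1.15 (SE 0.30, adjusted p = 0.333). Hist1h2bl had -0.97 (SE 0.20, adjusted p = 0.260). Hist1h2ba was the 1 gene with an estimate above 0, at 0.32 (SE 0.45, adjusted p = 0.814), and it turned to -0.38 without either 3 h library. Hist1h1b had -0.29 (SE 0.23, adjusted p = 0.680).

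The estimates were smaller without the untreated libraries. Leaving out either 0 h library is the same as leaving out the pair, since time is a block. In that fit 27 of 33 members had an estimate below 0 and the median was -0.48, against 0.06 for all loci. Without a 3 h library the median was -0.93 (0.07 for all loci) with 33 of 33 below 0. Without a 6 h library it was -1.18 (-0.003 for all loci) with 31.

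**Figure D3:**
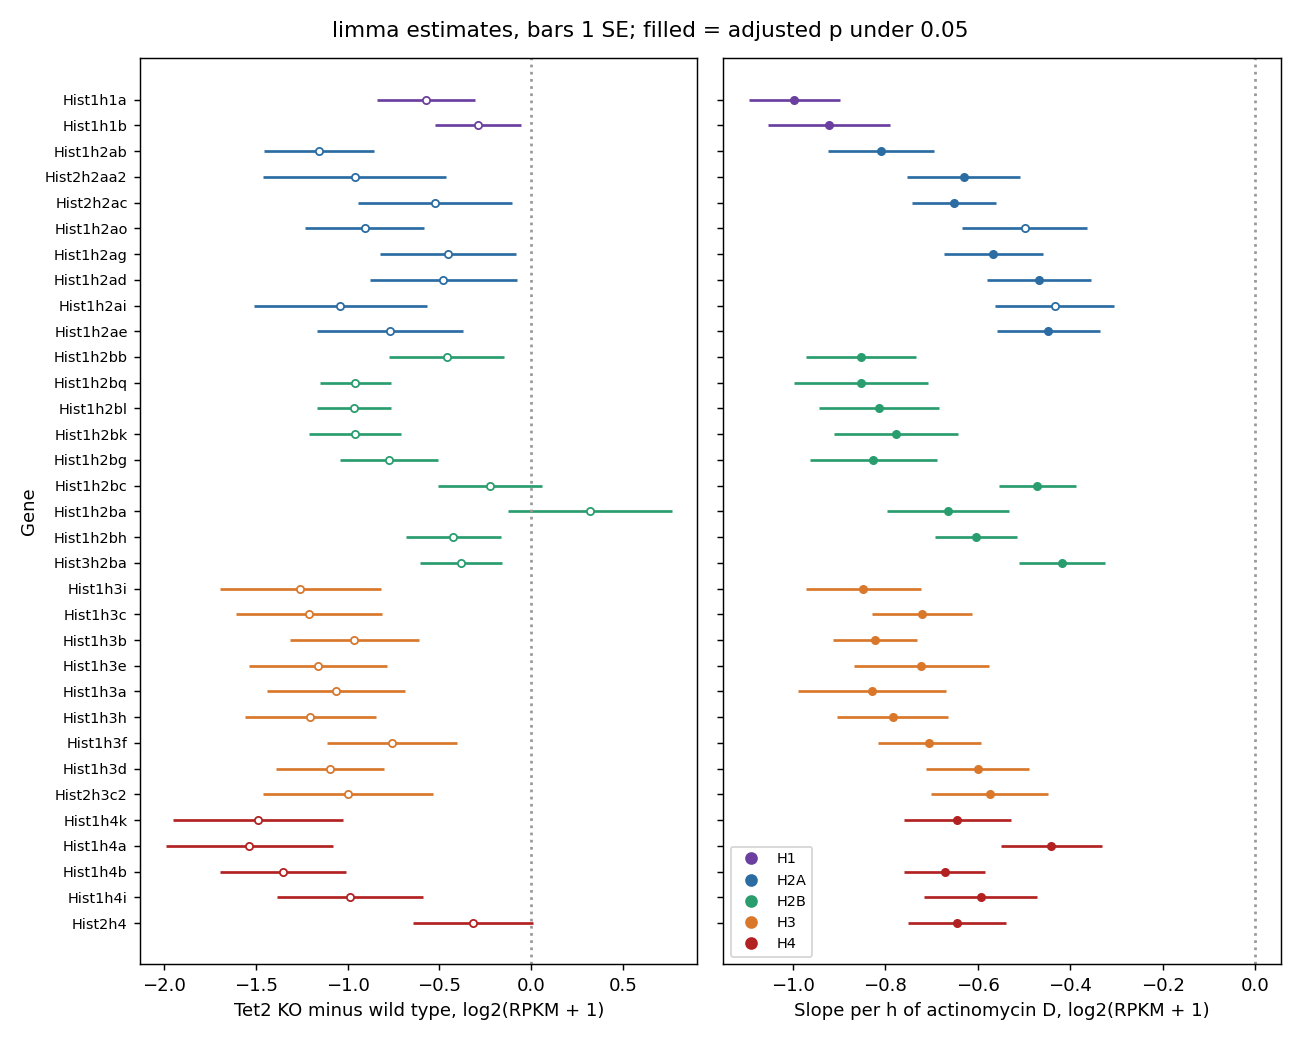
limma estimates for the 33 histone genes, ordered by class and mean RPKM. The left panel gives Tet2 KO minus wild type on log2(RPKM + 1) with time as a block and the right panel the change per hour, fitted over both genotypes. Bars are 1 SE and filled points passed at an adjusted p under 0.05, which 0 genes did on the left and 31 on the right.

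The second comparison asked how histone RNA changed while transcription was blocked. The median slope of the members was -0.66 log2 units per h, against -0.05 for all loci, and 31 of 33 passed, all in the lower direction (7.91% of all loci passed as lower, 0.118% as higher and 8.03% in either direction). Slopes are relative to the library, since RPKM are scaled to its total. All 9 H2B, 9 H3, 5 H4 and 2 H1 genes and 6 of 8 H2A genes passed. Hist1h2ao, with -0.50 (SE 0.13, adjusted p = 0.0608), and Hist1h2ai, with -0.43 (SE 0.13, adjusted p = 0.0801), did not. The H1 genes had the steepest slopes, -0.997 (SE 0.10, adjusted p = 0.00725) for Hist1h1a and -0.92 (SE 0.13, adjusted p = 0.0103) for Hist1h1b. Class medians were -0.96 for H1, -0.78 for H2B, -0.72 for H3, -0.64 for H4 and -0.53 for H2A. On a scale with a pseudocount of 1 a gene that starts low cannot show a steep slope.

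The count of calls depended on scaling and on single libraries, while every member had a slope below 0 in each setting tried. In the main fit 72.1% of all loci had a slope below 0. With quantile normalization 2 members passed (0.962% of all loci) and with equal medians 2 (0.7%). Without wild type 6 h 0 passed, and with the 3 Tet2 KO libraries alone 0, as no locus did in either fit. Without Tet2 KO 0 h 4 passed (1.48% of all loci), without wild type 0 h 13 (0.953%) and without wild type 3 h 18 (1.83%). At an unadjusted p under 0.05 there were 32 without wild type 6 h (16.2% of all loci) and 30 in Tet2 KO alone (10.6%). The median slope relative to all loci was -0.62 as deposited, -0.62 with quantile normalization and -0.63 with equal medians.

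The estimates for the early interval were the larger. From 0 to 3 h the median change was -3.26 on log2(RPKM + 1), against -0.03 for all loci, and 18 of 33 members passed, all in the lower direction (0.506% of all loci passed as lower, 0.0337% as higher and 0.54% in either direction). All 33 were among the 100 loci with the largest decrease. From 3 to 6 h the median was -0.60 against -0.26 for all loci. No member passed in that interval, nor did any other locus, and 8 members had an unadjusted p under 0.05 (12.5% of all loci). The late change was less negative than the early change for 33 of 33 members, by a median of 2.79 log2 units. Over all loci the late minus the early change was above 0 for 35.2%, with a median of -0.25. No member passed for this difference of intervals (lowest adjusted p = 0.307), as no locus did, and 28 had an unadjusted p under 0.05 (7.59% of all loci). The early count was 5 with quantile normalization (0.059% of all loci) or equal medians (0.0675%) and 6 without a filter on low values (0.0538%). Leaving out any library leaves 1 library at its time, and the count of calls then varied widely. The median early change in those fits ranged from -4.06 without the untreated Tet2 KO library to -2.62 without the untreated wild type library.

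On the RPKM scale, 31 of 33 members were at least 10-fold lower at 3 h than at 0 h in wild type, where 0.768% of all loci were. In Tet2 KO 19 of 33 were, with 0.844% of all loci. The median share of the 0 h level left at 3 h was 4.27% in wild type (1.61% to 11.4%) and 9.0% in Tet2 KO (0.728% to 29.6%). At 6 h it was 2.24% (0.350% to 11.5%) and 4.11% (0.933% to 35.9%). Over all loci the medians were 97.4% and 96.7% at 3 h and 75.0% and 82.4% at 6 h. The 6 h value was above the 3 h value for 5 members in wild type and 6 in Tet2 KO. Hist1h4a in Tet2 KO went from 6.28 to 7.76 RPKM, and the others had at most 3.13 RPKM at both times.

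The share left at 3 h had a higher class median in Tet2 KO for each of the 5 classes. For H4 the median left at 3 h was 6.06% in wild type and 16.9% in Tet2 KO, and for H2A 4.01% and 14.6%. For H3 it was 3.38% and 8.0%, for H2B 4.28% and 5.96%, and for H1 4.01% and 4.78%. A larger share was left in Tet2 KO for 27 of 33 members at 3 h and 29 at 6 h. The same count over all loci was not made. The median share left over all loci was 97.4% in wild type and 96.7% in Tet2 KO at 3 h. At 6 h it was 75.0% in wild type and 82.4% in Tet2 KO, so it was also higher in Tet2 KO at that time. A share is taken against the 0 h library of the same genotype, so a low 0 h value raises it. In the fit of slopes the difference, Tet2 KO minus wild type, was above 0 for 30 of 33 members and 60.9% of all loci, with a median of 0.24 per h against 0.02 for all loci. Class medians were 0.35 for H4, 0.29 for H3, 0.27 for H2A, 0.08 for H2B and 0.00 for H1. No member passed (lowest adjusted p = 1.00, with 3 at an unadjusted p under 0.05, where 4.12% of all loci were), as no locus did. In simulated data this fit called none of the changes put in, so the lack of calls says nothing about whether the slopes differ. The median turned to -0.30 without wild type 0 h and to -0.10 without Tet2 KO 6 h, and was 0.63 without Tet2 KO 0 h. Without a 0 or 6 h library, the slope of that genotype rests on a single interval and the other on both. Since the members changed more from 0 to 3 h than later, these fits cannot show whether the slopes differ.

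**Figure D4:**
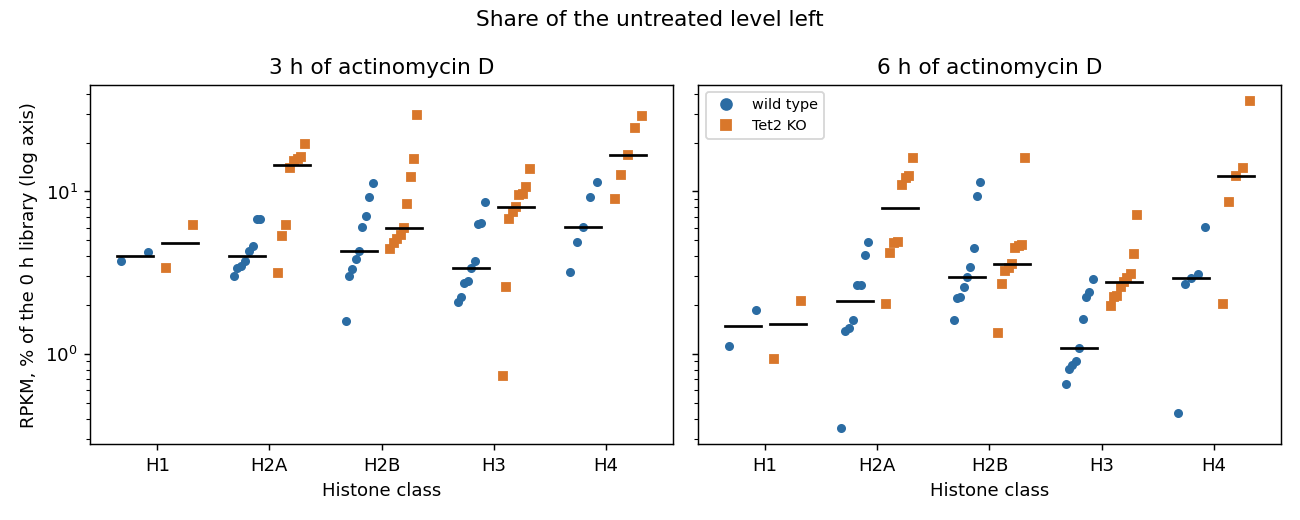
Share of the 0 h RPKM left at 3 and 6 h of actinomycin D (log axis), by histone class, with wild type circles and Tet2 KO squares. Points are genes and black lines are class medians. The Tet2 KO medians of H4 and H2A, 16.9% and 14.6% at 3 h, lie above those of wild type, 6.06% and 4.01%, while the H1 medians lie close together.

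The share left differed between members. Hist1h2bc had 65.2, 7.32 and 6.14 RPKM in wild type, whereas the Tet2 KO values were 33.8, 10.0 and 5.43, so that 11.2% and 29.6% were left at 3 h. Its RefSeq locus spans 8282 bases, and that of Hist1h2bq spans 3788, against 384 to 911 for the other 31 members. Hist1h2bq had 3.00% and 4.41% left. Hist1h4a kept 11.4% and 29.1% at 3 h, with a slope of -0.44 (SE 0.11, adjusted p = 0.0470), while Hist1h4b kept 9.22% and 16.9% and had -0.67 (SE 0.09, adjusted p = 0.00798).

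Genes listed as replication-independent histone variants, most of whose mRNAs are polyadenylated, were measured as well. None of 10 tested variant genes passed for the slope or for the genotype, and their medians were -0.03 per h and 0.02. H2afz, which encodes the H2A.Z variant, had 531, 491 and 383 RPKM in wild type, whereas the Tet2 KO values were 595, 751 and 664. H3f3a, which encodes the variant H3.3, had 206, 234 and 165 RPKM in wild type, whereas the Tet2 KO values were 188, 249.9 and 236. H3f3b, which encodes the same protein, had 150.4, 142 and 114 RPKM in wild type, whereas the Tet2 KO values were 157, 157 and 137. At 6 h these 3 stood between 72.1% and 126% of their 0 h level. The other variants ranged more widely, from 33.7% for H1f0, a linker histone, in wild type to 159.5% for H2afy, which encodes macroH2A, in Tet2 KO, and H2afj stood at 53.9% and 50.8%. At 0 h in wild type H2afz was above every member, and at 3 and 6 h H2afz, H3f3a and H3f3b were.

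Genes of histone mRNA synthesis, processing and decay were measured beside them. The median slope of the 18 tested was -0.13 per h, against -0.05 for all loci. None rose (0.118% of all loci did), and 4 fell with the slope (7.91% of all loci did). They were Casp8ap2, a factor of 3′ end processing (slope -0.41, adjusted p = 0.00727), Npat, a coactivator of histone transcription (-0.31, adjusted p = 0.0276), Zfp473, a zinc finger protein of the U7 processing particle (-0.29, adjusted p = 0.0198), and Lsm10, a subunit of that particle (-0.24, adjusted p = 0.0275). With quantile normalization 0 of the 18 passed, with equal medians 1 and with a library left out between 0 and 6. Npat had 9.41, 2.74 and 2.27 RPKM in wild type, whereas the Tet2 KO values were 11, 2.59 and 1.97. Slbp had 36.9, 35.9 and 13 RPKM in wild type, whereas the Tet2 KO values were 50.1, 46.8 and 21.5, with a slope of -0.22 (adjusted p = 0.0511) and a genotype difference of 0.50 (adjusted p = 0.401). Eri1, a 3′ exonuclease of the histone stem-loop, had 27.5, 7.03 and 11.7 RPKM in wild type, whereas the Tet2 KO values were 13.7, 8.19 and 5.26. No gene of this list passed for the genotype, with 12 of 18 estimates above 0 (54.7% of all loci) and a median of 0.08 (0.04 for all loci).

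Other RNAs that bear on histone levels were set beside the genotype difference. Of 21 S-phase genes, a list that also holds Slbp, 17 had an estimate above 0 in Tet2 KO (median 0.13). Of 11 histone chaperone genes 9 had (median 0.24), against 54.7% of all loci (median 0.04). The histone chaperone Nap1l4 had 0.79 (adjusted p = 0.333), and no gene of either list passed. Of 27 small nucleolar, Cajal body and other structured RNA loci, which also lack a poly(A) tail, 24 had an estimate below 0. Over all loci 45.3% did. None of the 27 passed, and the median of the 27 was -0.30. Their median level in Tet2 KO was 73.2%, 90.7% and 72.1% of wild type at 0, 3 and 6 h. The part of poly(A) selection and of the cell cycle in the histone values was not tested.

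m5C sites, listed from RNA bisulfite sequencing with 2 replicates per genotype, were few in these genes. The wild type table lists 4128 sites, of which 3 lie in histone loci, and the Tet2 KO table lists 4781, of which 2 do. No position was in both, and how many of all listed sites are in both is not given here. Within members, the wild type table has a site in Hist1h2ao (chr13:21810670, plus strand) with levels of 0.13 and 0.125 in the 2 replicates, and a site in Hist1h2ad (chr13:23574502, plus strand) with 0.105 and 0.143. The other wild type site is in Hist3h2a (chr11:58955124, plus strand) with 0.154 and 0.2. The Tet2 KO table has a site in Hist1h2ak (chr13:21753460, minus strand) with 0.188 and 0.267 and a site in Hist1h2af (chr13:23534110, plus strand) with 0.105 and 0.103. All 5 are in H2A loci. The tables give no coverage, so a position that is not listed may have been below the listed levels or not covered, and no comparison between genotypes was made.

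Stem cell markers were present, with 8 of 10 in the table and Pou5f1 between 415 and 799 RPKM, and Nanog between 37.2 and 72. Of the 8, Zfp42 passed for the genotype, lower in Tet2 KO (-1.95, SE 0.18, adjusted p = 0.0434), as 0.0675% of all loci did. Zfp42, Klf4 and Fgf4 passed as lower for the slope, as 7.91% of all loci did. Feeder markers were present as well, 13 of 16, with summed levels between 331 and 502 RPKM in wild type and between 312 and 457 in Tet2 KO. None of the 13 passed for the genotype, and the part of either marker list in the histone differences was not tested. The table holds no read numbers. Relative depth could not be settled from the ratios of values under 0.3 RPKM, since the best solution matched 15.6% to 45.0% of such loci and the next best 13.9% to 44.6%. The depth behind each value is therefore unknown, and values under 1 RPKM at 3 and 6 h are the least certain.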

How the data were processed

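RNA levels are RPKM in the table the authors deposited, by its column names. The name of 1 column (untreated wild type) spells the unit without its first letter and was taken as RPKM. The site tables hold the m5C level of each site as a fraction in each replicate, per the file headers, without coverage. The submitters' processing notes name Bowtie2, Cufflinks, Trimmomatic, MACS2 and DESeq2 as tools, with mm10 and GRCm38 as builds. Their versions and roles, and the treatment of multiply mapped reads, are not given in those sources. The 8 m5C immunoprecipitation and input samples of the 18 were not analysed here.

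Tests used log2(RPKM + 1) and limma (version 3.58.1, R version 4.3.3), over the 11855 loci with a mean of at least 1 RPKM, with a variance trend, two-sided and with Benjamini-Hochberg adjustment over all of them. The genotype fit had time as a factor, the slope fit genotype as a factor, the slope difference their interaction, and the interval fits both factors. The script was checked on simulated data, where the fit of the slope difference called none of the changes put in and the other fits called most of the larger ones. The alternatives were another pseudocount, filter, scaling or trend, rows of several symbols as members, each library left out, each genotype alone, no time block and, chosen after seeing the data, no 0 h pair. Sites were placed in genes by position in the RefSeq table. The members, the gene lists and the naming rule (every member may be named, and of other lists the called genes or the smallest p) were chosen with earlier results of these data known. H2afz, H3f3a, H3f3b, H2afj, H2afy, Eri1, Pou5f1 and Nanog were named with their values known, whatever the rule.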

Additional observations from a re-analysis of the deposited data

How the results depend on the processing

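No paired analysis was possible because the RNA libraries carry no replicate numbers and the bisulfite levels were not tested; the time block of the genotype fit sets libraries of the same time against each other but pairs no replicates. For the genotype difference 0 members passed under every setting, and 19 had an unadjusted p under 0.05 with a pseudocount of 0.1 (11% of all loci) but 0 without the time block (5.32%). The slope count was 31, and 2 with quantile normalization or equal medians, 0 in Tet2 KO alone and between 0 and 33 over the libraries left out in turn. In wild type alone 33 passed (11.6% of all loci), with 1 residual degree of freedom per gene. The early count was 18, and 6 without a filter, 5 with quantile normalization or equal medians and between 0 and 32 with a library left out. The count for the slope difference was 0 with all libraries. With a 0 or 6 h library left out, this fit sets unlike intervals of the genotypes against each other. The median slope difference, 0.24, ranged from -0.30 to 0.80 over the libraries left out. The late count and the difference of intervals gave 0 in every setting. With a library left out, the lone library at its time is assumed to vary like the others. The genotype difference ranged over the libraries left out from -0.78 to 0.0703 for Hist1h2ag, from -0.54 to 0.12 for Hist2h4, from -0.38 to 0.72 for Hist1h2ba and from -0.75 to 0.01 (0.00699) for Hist1h2bb. Without the 0 h pair, a setting chosen after seeing the data, Hist1h2ag had 0.0703 and Hist2h4 0.12. The causes were not tested. Equal medians moved the median of all loci by 0.15 from 0 to 3 h and by 0.31 from 3 to 6 h, and relative to it the members changed by -3.19 and -0.36, against -3.23 and -0.33 as deposited.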
